A study of Mus musculus with 6 samples.

Results

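The 8 genes described here encode granule proteins of developing myeloid cells (Mpo, Elane, Ctsg, Camp, Ltf and Prg2) and proteins of B cell precursors (Igll1 and Rag1), and they are 8 of the 770 genes measured. They were chosen by their levels in these same 6 libraries, as genes that rise and fall together from library to library, so that shared pattern is given as a description and without a test. The samples were primary oral squamous cell carcinomas of mice, induced with the chemical carcinogen 4NQO in both groups. One group of 3 samples had received vehicle and the other group of 3 an agonistic antibody to CD40, a receptor that activates antigen-presenting cells. RNA came from formalin-fixed, paraffin-embedded tumour tissue. The labels give no dose, schedule, age, sex or background strain, and they do not say that the samples were separate animals, so a p-value here speaks only of differences among these 6 libraries, some of which may be technical. The question that the labels pose is how expression differs after the antibody.

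Neutrophils are made in bone marrow, where their granule proteins are transcribed in waves. Primary granule genes such as Mpo, Elane and Ctsg are active in promyelocytes, and secondary granule genes such as Camp and Ltf in myelocytes and metamyelocytes; mature neutrophils carry the proteins but little of the primary granule transcripts. Igll1 and Rag1 act in the marrow at the stage when B cell precursors assemble their receptor. In bulk tumour RNA, a change in the number of such cells and a change in RNA per cell cannot be told apart.

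The promoters of these genes are shown as the regulatory sequence beside the start of genes whose levels vary together in the values below. RefSeq windows of build GRCm38.p6 were found for 7 of the 8 genes, and the 250 bases before each start were searched on both strands. The letters AGGAAGT, an ETS core with the flank preferred by the myeloid and B cell factor PU.1, occurred upstream of Elane, Mpo, Ctsg and Rag1, that is in 4 of 7 members and in 7.69% of 32851 mouse windows of the same length. The letters CCCNNGGG, the core of sites bound by early B cell factor, occurred upstream of Igll1 and Ltf and in 11.8% of windows. TTNNGNAA, the core read by C/EBP factors, occurred upstream of Rag1 and Ltf and in 36.8% of windows, and the E box CANNTG upstream of Rag1, Camp, Ltf, Ctsg and Igll1 and in 66.2% of windows. In the member windows 1 pair of matches overlapped, AGGAAGT with TTNNGNAA upstream of Rag1. The motifs were chosen with the sequences in view, and a match is a description of letters, not a bound site. Each sequence below reads 5′ to 3′ in the direction of the gene and ends at the base before its start, with AGGAAGT or its reverse complement in capitals for Elane, Mpo, Ctsg and Rag1 and CCCNNGGG in capitals for Igll1.
Elane, chr10:79886062-79886311, plus strand: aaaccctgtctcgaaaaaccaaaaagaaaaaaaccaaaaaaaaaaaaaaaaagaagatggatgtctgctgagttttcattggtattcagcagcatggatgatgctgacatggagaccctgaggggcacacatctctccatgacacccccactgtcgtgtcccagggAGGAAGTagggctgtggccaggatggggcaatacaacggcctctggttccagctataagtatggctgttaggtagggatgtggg
Mpo, chr11:87793534-87793783, plus strand: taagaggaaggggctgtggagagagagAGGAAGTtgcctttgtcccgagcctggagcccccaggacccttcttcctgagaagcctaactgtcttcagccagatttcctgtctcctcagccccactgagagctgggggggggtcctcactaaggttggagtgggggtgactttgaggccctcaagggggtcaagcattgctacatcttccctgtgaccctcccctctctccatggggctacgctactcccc
Ctsg, chr14:56102575-56102824, minus strand: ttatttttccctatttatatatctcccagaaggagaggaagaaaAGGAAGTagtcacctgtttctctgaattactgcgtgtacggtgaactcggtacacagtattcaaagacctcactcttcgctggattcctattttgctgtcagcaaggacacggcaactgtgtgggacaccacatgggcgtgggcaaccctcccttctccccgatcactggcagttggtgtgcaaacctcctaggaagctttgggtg
Rag1, chr2:101649533-101649782, minus strand: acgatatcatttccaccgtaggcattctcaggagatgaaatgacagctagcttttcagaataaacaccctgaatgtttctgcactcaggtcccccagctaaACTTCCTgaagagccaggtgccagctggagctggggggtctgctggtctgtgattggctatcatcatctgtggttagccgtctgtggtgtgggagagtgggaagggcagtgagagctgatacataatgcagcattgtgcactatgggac
Igll1, chr16:16863986-16864235, minus strand: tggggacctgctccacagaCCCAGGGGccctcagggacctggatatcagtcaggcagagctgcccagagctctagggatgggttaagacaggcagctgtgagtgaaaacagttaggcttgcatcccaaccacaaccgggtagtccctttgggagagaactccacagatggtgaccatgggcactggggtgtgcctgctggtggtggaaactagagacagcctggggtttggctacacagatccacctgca

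Values are log2 normalized counts as the authors deposited them, and the 3 libraries of a group are given in the order of replicates 1, 2 and 3. A level counts as above background where the recovered count exceeds the mean of the 8 negative control probes plus 2 SD. On the log2 scale the limit was 5.66, 6.52 and 5.57 for vehicle and 5.94, 6.02 and 6.24 for anti-CD40. Counts over the 770 genes summed to between 333400 and 578598 per library. The housekeeping mean lay between 11.01 and 11.11, and vehicle 2 had the highest factor per count (3.28, against 1.72 to 2.80 in the others) and with it the highest background limit. The epithelial genes Cdh1 (11.94 to 12.51) and Epcam (10.16 to 11.52) were above background in all 6 libraries.

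Of the primary granule genes, Mpo, which encodes the peroxidase that makes hypochlorous acid, was 5.55, 9.57 and 5.57 in vehicle tumours and 9.43, 7.84 and 5.85 in anti-CD40 tumours. It was far above background in vehicle 2, anti-CD40 1 and anti-CD40 2, at 230, 300 and 92 recovered counts, and just above the limit in vehicle 3, at 25 counts. Elane, which encodes neutrophil elastase, was 5.55, 9.02 and 4.84 in vehicle and 9.19, 7.19 and 5.14 in anti-CD40 tumours. Vehicle 2, anti-CD40 1 and anti-CD40 2 were the libraries above background. Ctsg, which encodes the serine protease cathepsin G, was 4.40, 7.43 and 5.002 in vehicle and 6.78, 5.74 and 4.89 in anti-CD40 tumours. It reached 51 counts in vehicle 2 and 46 in anti-CD40 1, whereas anti-CD40 2, with 20 counts, was below its limit.

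Among the genes of secondary granules, Camp, which encodes the antimicrobial peptide precursor cathelicidin, had the widest range of the 8, 6.91 log2. It was 4.27, 10.81 and 4.84 in vehicle tumours and 11.17, 8.87 and 5.14 in anti-CD40 tumours. In recovered counts this was 8, 544 and 14 against 1007, 190 and 11, so that each group held both background and high values. Ltf, which encodes the iron-binding protein lactoferrin, was 5.004, 7.45 and 5.94 in vehicle and 7.30, 6.74 and 6.05 in anti-CD40 tumours. Its range was narrower, 2.45 log2, and vehicle 3 was also above background, at 33 counts. Lactoferrin is made by glandular epithelium as well as by neutrophils. Prg2, which encodes the major basic protein of eosinophil granules, was 4.40, 8.95 and 4.32 in vehicle and 9.24, 7.09 and 5.14 in anti-CD40 tumours. Its 3 libraries above background were those of Mpo, Elane and Camp that stood highest. Of the other eosinophil genes measured, the eotaxin receptor gene Ccr3 was 5.60, 6.73 and 4.92 in vehicle and 5.59, 6.53 and 5.35 in anti-CD40 tumours, above background in vehicle 2 and anti-CD40 2 but not in anti-CD40 1. Il5ra, the interleukin 5 receptor gene, was at or below background in every library.

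The B precursor genes were above background in 1 or 2 libraries each and did not share one profile. Igll1, which encodes the lambda 5 part of the surrogate light chain, was 4.92, 8.31 and 5.28 in vehicle and 5.84, 6.49 and 5.54 in anti-CD40 tumours. It was above background only in vehicle 2, at 95 counts, and anti-CD40 2, at 35 counts. In anti-CD40 1, where every granule gene was above background, it had 23 counts and lay below the limit. Rag1, which encodes the catalytic part of the V(D)J recombinase, was 5.16, 6.44 and 5.15 in vehicle and 6.75, 5.60 and 5.02 in anti-CD40 tumours. Only anti-CD40 1, with 45 counts, was above background. Its 25 counts in vehicle 2 equalled those of the highest negative control there. For Rag1 the label of a precursor cell signal therefore rests on 1 library.

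**Figure D1:**
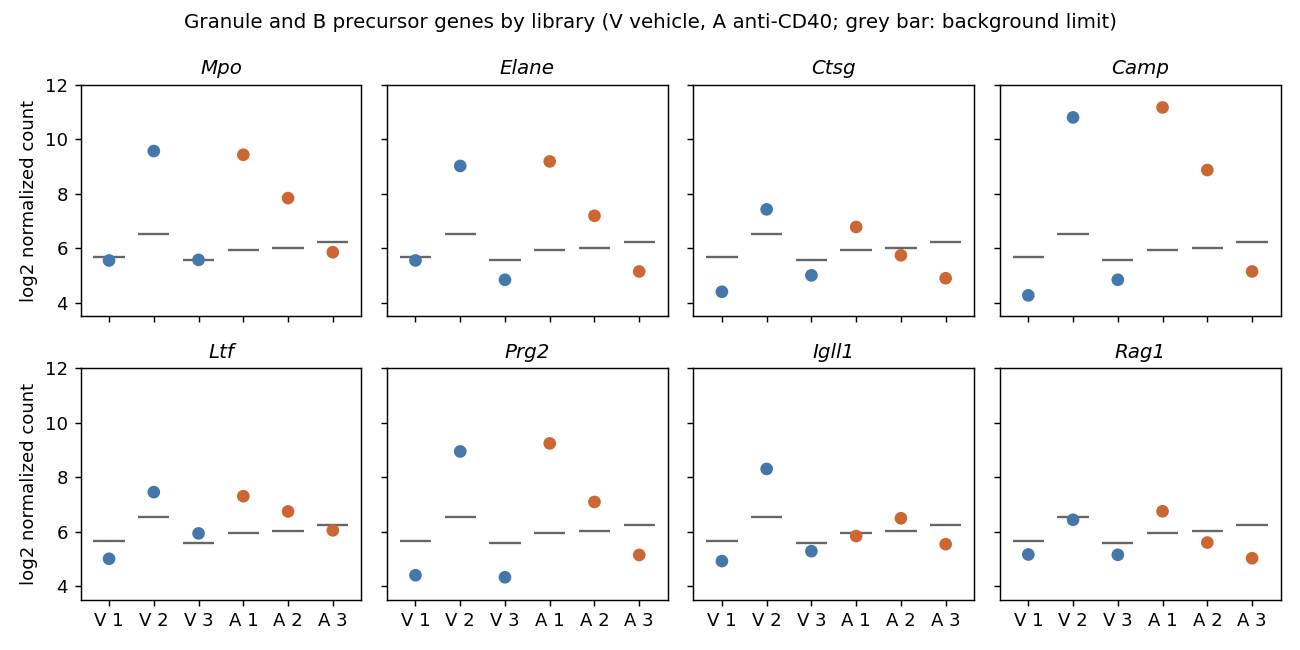
Log2 normalized count (y axis) of each gene in the 3 vehicle (V, blue) and 3 anti-CD40 (A, orange) libraries, with a grey bar at each library's background limit. The granule genes stand above the bars in V 2 and A 1, and all but Ctsg also in A 2, whereas Igll1 is above in V 2 and A 2 and Rag1 in A 1 alone.

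Over all 48 values of the 8 genes, 22 were above background: 0, 7 and 2 genes for vehicle 1 to 3, and 7, 6 and 0 for anti-CD40 1 to 3. The 8 genes took 0.0204% of all counts in vehicle 1 (95% exact Clopper-Pearson interval 0.0169 to 0.0244), 0.365% in vehicle 2 (0.345 to 0.385) and 0.0305% in vehicle 3 (0.0258 to 0.0358). They took 0.403% in anti-CD40 1 (0.385 to 0.421), 0.114% in anti-CD40 2 (0.105 to 0.125) and 0.0324% in anti-CD40 3 (0.0266 to 0.0391). Intervals cover counting error only. These shares use counts without the scaling factors, and vehicle 2 and anti-CD40 1 again stood far above vehicle 1, vehicle 3 and anti-CD40 3, with anti-CD40 2 between.

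The 3 highest libraries were vehicle 2, anti-CD40 1 and anti-CD40 2 for 8 of 8 members, the pattern that defined them, and for 12.5% of all 770 genes. That order includes values below background, for Rag1 in vehicle 2 and anti-CD40 2, Igll1 in anti-CD40 1 and Ctsg in anti-CD40 2. Rag1 had 18 recovered counts in both anti-CD40 2 and vehicle 3, with library factors of 2.44 and 1.72. Those factors alone set the order of these libraries for Rag1. Within the vehicle group the distance between the lowest and highest library ran from 1.29 (Rag1) to 6.54 (Camp) log2. Within the anti-CD40 group it ran from 0.95 (Igll1) to 6.03 (Camp). The spread within groups placed 4 of the members, Camp, Prg2, Elane and Mpo, among the 10 genes of the table with the highest within-group SD. The median within-group SD was 1.72 for the members and 0.39 over all genes. Because the members were chosen for varying between these same libraries, a high spread came with the choice and is given as description.

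Most members had similar levels in vehicle 2 and anti-CD40 1, and Igll1 did not. Anti-CD40 1 minus vehicle 2 was 0.37 for Camp, −0.14 for Mpo, 0.17 for Elane, 0.30 for Prg2, −0.15 for Ltf and 0.31 for Rag1. The difference was −0.65 for Ctsg and −2.47 for Igll1. Rag1 was below background in vehicle 2, at 25 counts, and Igll1 in anti-CD40 1, at 23 counts. The differences of Rag1 and Igll1 thus each include a background value. Between anti-CD40 1 and anti-CD40 2 the granule genes differed by 0.56 (Ltf) to 2.30 (Camp), all lower in anti-CD40 2, while Igll1 was 0.65 higher there. Likeness was measured as the root-mean-square difference between centred log2 profiles over the 6 libraries, which share their library and scaling factor across genes, and smaller values mean more alike. Mpo and Elane were each other's nearest gene of the whole table (0.27), and Prg2 was nearest to Mpo (0.35). The nearest gene to Igll1 was Pax5, the transcription factor of B cell identity (0.25), with Cxcr5, Pou2af1 and Ms4a1, all genes of B cells, among the next. Cxcr5 was at or below background in all 6 libraries. Of the 10 genes nearest to Igll1, 1 was a member, and of the 10 nearest to Rag1, 0 were.

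The comparison of anti-CD40 with vehicle tumours called 0 of the 8 members, and 0% of all 770 genes, at an adjusted p of 0.05 with limma; at an unadjusted p under 0.05 there were 0 members and 25 genes in all, or 31 genes with limma-voom on recovered counts. Camp averaged 6.64 ± 3.62 (SD, n = 3) after vehicle and 8.40 ± 3.04 after anti-CD40, which differ by 1.76 with a 95% confidence interval from −2.97 to 6.49. Prg2 was 5.89 ± 2.65 and 7.16 ± 2.05, a difference of 1.27 (−2.10 to 4.64), and Mpo 6.90 ± 2.32 and 7.71 ± 1.79, a difference of 0.81 (−2.14 to 3.77). Elane differed by 0.71 (−2.33 to 3.74), Ltf by 0.57 (−0.89 to 2.02), Ctsg by 0.20 (−1.71 to 2.10) and Rag1 by 0.21 (−1.02 to 1.44). Igll1 was 6.17 ± 1.86 and 5.96 ± 0.49, a difference of −0.21 (−2.18 to 1.76). The adjusted p from limma was 0.974 for each of the 8.

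The groups overlapped for every member, 0 of 8 being free of overlap against 10.3% of all genes. The pattern that defined the members puts vehicle 2 above anti-CD40 3 and anti-CD40 1 above vehicle 1. Such a pattern makes the groups overlap, so the count of 0 came with the choice and is given as description. In the mean, 7 of 8 members were higher in anti-CD40 tumours, beside 54.5% of all genes. The median difference was 0.64 for the members and 0.038 over all genes. As the members were chosen for rising and falling together, they are not independent observations of direction. The count of 7 was 4 without vehicle 3 and 3 without anti-CD40 1. Camp's difference of 1.76 shrank to 0.37 when anti-CD40 1 was left out, to 0.57 on dropping vehicle 1 and to 0.86 on dropping vehicle 3. It grew to 3.84 when vehicle 2 was left out and to 3.39 on dropping anti-CD40 3. Igll1's difference of −0.21 was 0.86 without vehicle 2. The intervals show what 3 libraries a group can resolve here: for Camp, differences of several log2 units in either direction lie inside. Cd40, the antibody's target, differed by −0.25 (−1.05 to 0.54) and lay 1.40 from the members' mean profile (a root-mean-square difference, as above), at 7.36, 7.05 and 6.53 in vehicle and 6.92, 7.09 and 6.16 in anti-CD40 tumours.

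**Figure D2:**
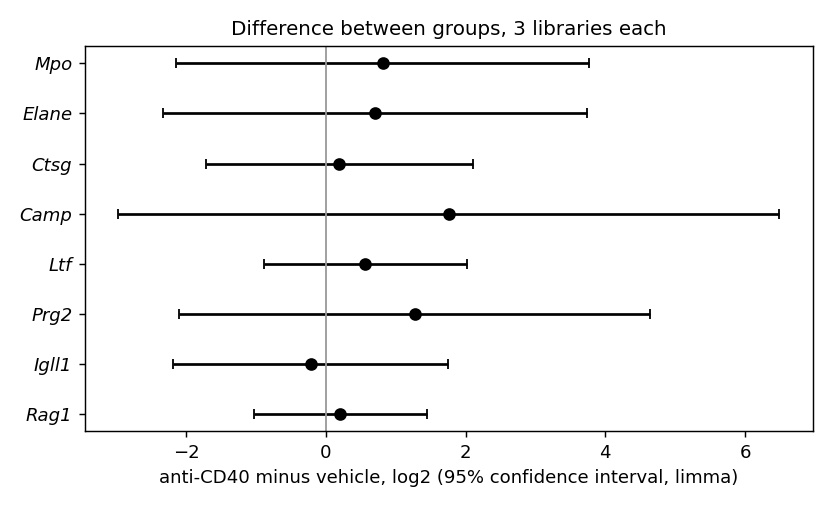
Difference in log2 level between the groups (x axis, anti-CD40 minus vehicle) for each gene, with points at limma's estimate and bars for its 95% confidence interval, 3 libraries per group. Every bar spans 0, and Camp's is the widest, from −2.97 to 6.49.

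The 10 other genes nearest to the members' mean profile included 4 genes of B cells. The nearest was Msln, which encodes the surface protein mesothelin (7.13, 11.73 and 8.86 in vehicle; 11.69, 9.96 and 9.05 in anti-CD40 tumours; 0.52 from the profile). Next came Chil3, which encodes a chitinase-like protein of myeloid cells (6.10, 8.74 and 5.34; 9.83, 7.31 and 5.92; 0.52). The B cell genes Ms4a1 (0.56), Cd79b (0.58), Pou2af1 (0.64) and Pax5 (0.80) followed, each above background in the same 3 libraries and in no other. The 10 also held the exonuclease gene Isg20 (0.70), the gelatinase gene Mmp9 (0.83) and the adhesion gene Ceacam1 (0.85). The adjusted p of each of the 10 genes was 0.974 between treatments with limma.

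**Figure D3:**
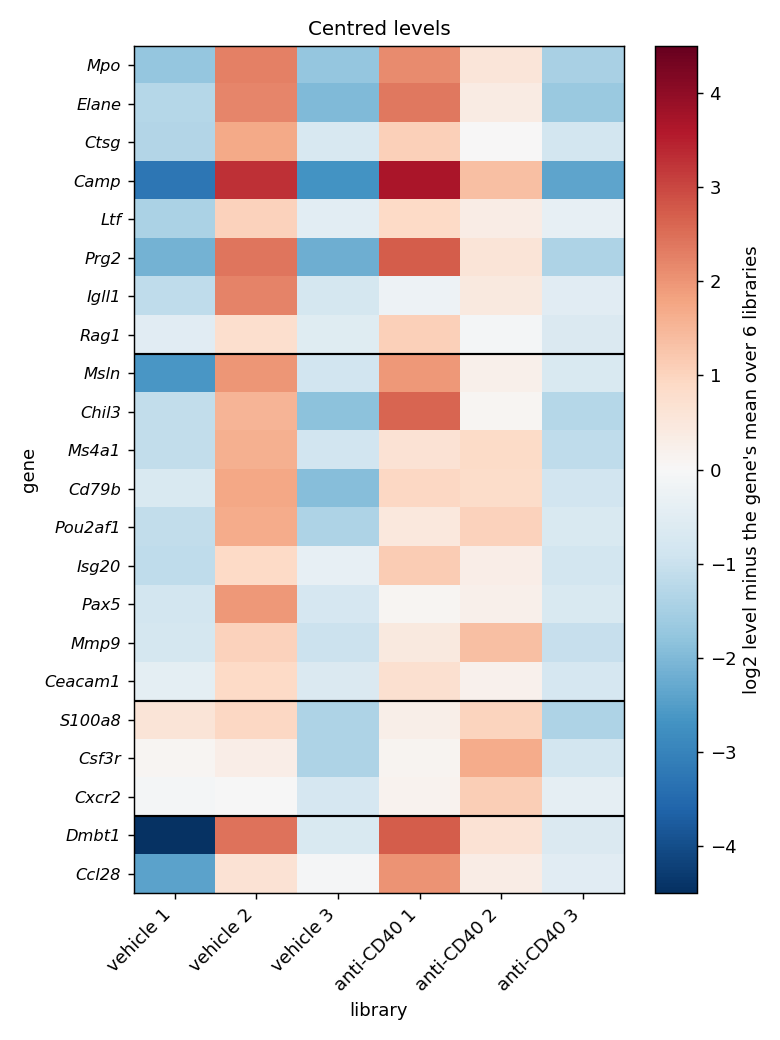
Log2 level minus each gene's mean over the 6 libraries (colour, red higher and blue lower) for the members (top), the genes named above as nearest to them, 3 neutrophil genes and 2 glandular genes, with libraries in columns. The members are reddest in vehicle 2 and anti-CD40 1 and paler in anti-CD40 2, except that Igll1 is pale blue in anti-CD40 1 and Rag1 in anti-CD40 2, while Ms4a1, Pou2af1, Pax5 and Mmp9 are redder in anti-CD40 2 than in anti-CD40 1 and S100a8 is red in vehicle 1 too.

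Genes of mature neutrophils did not follow the granule genes in vehicle 1. S100a8, which encodes a calcium-binding protein abundant in mature neutrophils and also made by stressed squamous epithelium, was 16.75, 17.12 and 14.79 in vehicle and 16.43, 17.18 and 14.77 in anti-CD40 tumours. Vehicle 1 thus had S100a8 near its highest level with 0 of 8 members above background. The granulocyte growth factor receptor gene Csf3r was 6.70, 6.90 and 5.22 and then 6.72, 8.29 and 5.78, highest in anti-CD40 2 and alike in vehicle 1, vehicle 2 and anti-CD40 1. Cxcr2, the receptor gene for neutrophil-attracting chemokines, was 7.01, 7.09 and 6.35 and then 7.26, 8.19 and 6.68. The mean over 12 measured genes of mature neutrophils was 7.91, 8.18 and 6.96 for vehicle 1 to 3 and 7.83, 8.42 and 7.23 for anti-CD40 1 to 3. Between treatments 0 of the 12 passed the test, with 8 higher, 4 lower and a median difference of 0.11. The members' 3 highest libraries were shared by 5 of the 12, beside 12.5% of all 770 genes.

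Of the listed granule genes, 3 of 6 primary and 7 of 10 secondary or tertiary ones were measured. Beside the members these were Lcn2, Chil3, Mmp9, Cybb and Itgam, of which 3 had the members' 3 highest libraries. Lcn2, which encodes the siderophore-binding protein lipocalin 2 and is also made by epithelium, was 10.62, 9.84 and 7.79 in vehicle and 10.88, 10.55 and 9.05 in anti-CD40 tumours. It was therefore high in vehicle 1, where Camp and Ltf were at background. Of 15 measured genes of progenitors and myeloid transcription factors, 2 had that pattern, beside 12.5% of all 770 genes. They were Gfi1 (5.30, 6.38 and 5.34; 5.95, 6.19 and 5.25) and the lymphoid factor Ikzf1 (6.93, 8.21 and 6.29; 7.26, 7.45 and 6.83). Cebpb, which encodes a C/EBP factor of myeloid cells, and Cd34, carried by progenitors and by endothelium, were nearly level across libraries, at 12.42 to 12.97 and 11.89 to 12.54. The progenitor receptor gene Kit was 6.99, 7.56 and 7.22 in vehicle and 7.72, 7.24 and 7.33 in anti-CD40 tumours. Between treatments limma called 0 of the 10 granule genes and 0 of the 15 others; 9 and 10 had higher means in anti-CD40 tumours, and list medians were 0.71 (primary), 0.57 (secondary and tertiary) and 0.10.

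Igll1 lay closest to other B lineage genes. Of 8 measured genes of the B precursor list, 6 had the members' 3 highest libraries. Igll1 and Rag1 had that pattern by choice. Of the 6 genes of the list that were not members, 4 had it, beside 12.5% of all 770 genes. These included Pax5, Cd79a and Cd79b, of which Cd79a was at or below background in every library. Cd79b, which encodes a signalling chain of the B cell receptor, was 5.55, 7.95 and 4.32 in vehicle and 7.15, 7.04 and 5.35 in anti-CD40 tumours. The interleukin 7 receptor gene Il7r, needed by B precursors but carried by T cells too, was 7.21, 7.48 and 6.65 and then 6.98, 7.39 and 7.17. Ms4a1, which encodes CD20 of mature B cells and is absent from the earliest precursors, was 5.16, 7.89 and 5.404 and then 6.95, 7.14 and 5.14. Of 9 measured mature B cell genes, 5 had the members' 3 highest libraries, and 5 were at or below background in every library. Cd22 and Fcer2a were in both sets, so that for them the order is one of background values. By limma 0 of the 8 and 0 of the 9 passed between treatments, with 4 and 5 higher in anti-CD40 tumours and medians of 0.0072 and 0.12. Vehicle 2, the library with the highest scaling factor, had the highest mean of both lists (7.61 and 7.49), and the part of the factor in genes near background was not tested.

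**Figure D4:**
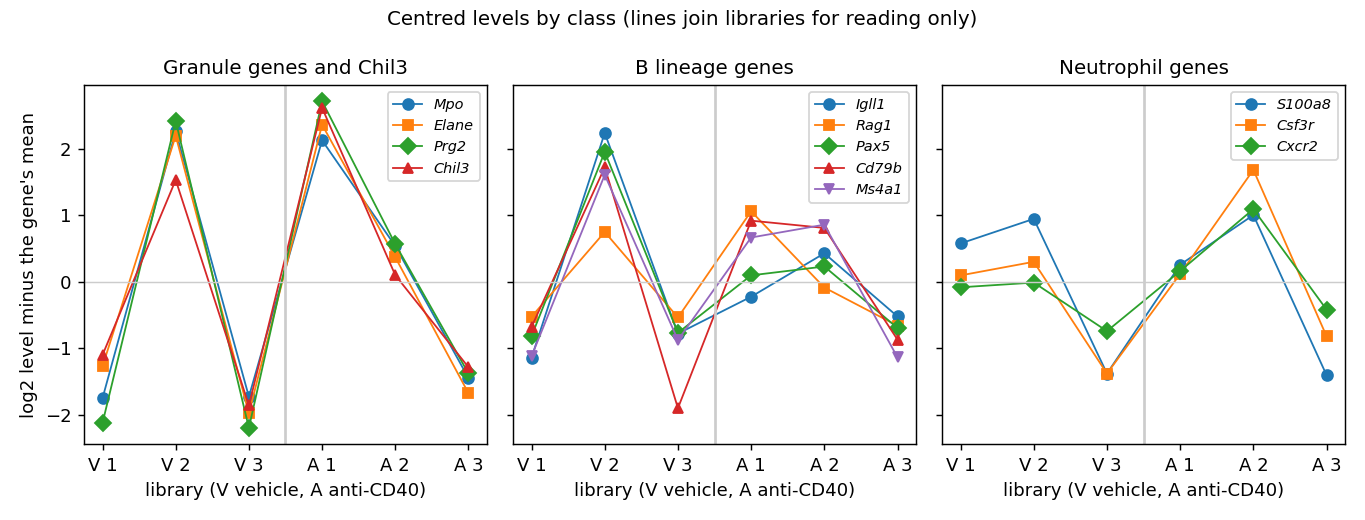
Log2 level minus each gene's mean (y axis) by library (x axis) for granule genes with Chil3 (left), B lineage genes (middle) and neutrophil genes (right); lines join libraries for reading only. The granule genes peak in V 2 and A 1, Igll1 and Pax5 peak in V 2 alone, and S100a8 and Csf3r do not fall in V 1.

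Some markers of other cell types had the members' 3 highest libraries. Dmbt1 and Ccl28, genes of salivary and other glandular epithelium, were 10.06, 16.96 and 13.83 and 4.92, 7.99 and 7.28 in vehicle, and 17.23, 15.17 and 13.89 and 9.37, 7.66 and 6.83 in anti-CD40 tumours. Both were highest in the members' 3 highest libraries. The third glandular gene measured, Muc1, was not (8.27, 6.49 and 6.02; 6.19, 6.37 and 8.23), and the list mean ran from 7.75 to 10.48 in vehicle and from 9.65 to 10.93 in anti-CD40 libraries. Of 6 measured mast cell genes and 14 T cell genes, 0 had the pattern, beside 12.5% of all 770 genes. Of 5 plasma cell genes 1 had it, of 11 monocyte and macrophage genes 2, and of 5 bone and osteoclast genes 1. The last was Spp1, which encodes osteopontin (9.17, 10.29 and 6.86; 9.47, 9.59 and 7.00). The bone list mean ran from 7.17 to 8.77 in vehicle and from 7.73 to 8.19 in anti-CD40 libraries. Of 8 listed platelet genes 3 were measured and 0 had the pattern, although Ppbp, a platelet chemokine gene, was 6.21, 9.51 and 6.70 in vehicle and 10.01, 8.56 and 10.56 in anti-CD40 tumours, high also in anti-CD40 3. Of 6 erythroid genes only Tfrc was measured, at 10.98 to 11.57. The squamous and carcinoma list mean stayed between 10.63 and 11.11 in all 6 libraries. The part of glandular, bone or platelet RNA in the members' levels was not tested.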

How the data were processed

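The deposited table holds log2 normalized counts for 770 genes, 6 positive and 8 negative controls; for its platform, software and normalization rule the sources used here give nothing. The linear values step in whole counts: after taking off 4.55 and dividing by a library factor, 4704 of 4704 lay within 0.05 of a whole number. That offset and the unsubtracted background shrink log2 differences of low genes. All 6 sample columns were matched by their names in the labels. Groups were compared with limma 3.58.1 (R 4.3.3; lmFit and eBayes without trend) on the deposited values, two-sided, with p-values adjusted over all 770 genes (Benjamini-Hochberg, threshold 0.05), 4 residual and 3.37 prior degrees of freedom, and the procedure was tested on simulated data. An exact permutation of 3 against 3 cannot fall below p = 0.1. Descriptions and plots used pandas 2.3.3 and matplotlib 3.10.9 in Python 3.11.15. The members and gene lists were chosen with earlier results of these data known. Named genes are the members, Cd40, the 10 other genes nearest to the members' mean centred profile and measured genes of the lists, of which some were picked after their values were seen because a result turned on them. Alternatives were housekeeping centring (20 genes), quantile normalization, trend and robust variance, a filter on genes above background in at least 3 libraries, limma-voom on recovered counts, background subtraction, the replicate block and leaving out each library.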

Additional observations from a re-analysis of the deposited data

How the results depend on the processing

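No alternative called a member. The count of all genes called, 0 in the deposited values, was 1 after background subtraction with a floor of 1; this was Masp2, at or below background in all 6 libraries, so that its vehicle values met the floor. The number of members higher in anti-CD40 tumours, 7, ranged from 3 to 8 as single libraries were left out. Of 53 member differences under settings that kept all libraries, 51 kept their sign; the exceptions, both after background subtraction, were Igll1 at 0.34 and Rag1 at −0.051. With 1 library left out, 38 of 48 kept their sign, and the differences ranged from 0.37 to 3.84 for Camp, −0.050 to 2.15 for Mpo, −0.30 to 1.98 for Elane, −0.41 to 1.10 for Ctsg, 0.23 to 2.80 for Prg2, 0.0024 to 1.23 for Ltf, −0.84 to 0.86 for Igll1 and −0.27 to 0.64 for Rag1. The filter kept 5 of the 8 members (Camp, Mpo, Elane, Prg2 and Ltf). With the replicate number as a block, 0 members and 0 genes were called and 7 members were higher; same-numbered libraries deviated with correlations of −0.43, 0.069 and 0.28 across genes, so the numbers were not taken as pairs. Of the 10 genes nearest to the members' profile, 6 were shared after background subtraction and 7 to 10 with 1 library left out, choices made after seeing the data, as was the highest negative control as limit, which put 23 and not 22 of 48 member values above background. Depth limits Rag1, Igll1 and Ctsg, whose highest counts were 45, 95 and 51 against limits of 24.7 to 26.6.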

Other observations

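Cfd, which encodes the serine protease adipsin of fat cells and complement, was the gene nearest to Camp in centred profile over the 6 libraries (root-mean-square difference 0.72). It was 5.37, 10.74 and 7.00 in vehicle and 11.76, 9.99 and 6.83 in anti-CD40 tumours. Rag1 was nearest to genes of other classes, Mfge8 (0.19), which encodes a bridge to dying cells, Ceacam1 (0.20) and Epsti1 (0.23). Epsti1 was at or below background in all 6 libraries, and Rag1 was above background in 1.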
